A study of Mus musculus with 8 samples.

Results

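Microglia of aged mice given interleukin-5 (IL-5) were compared with microglia of aged mice given phosphate-buffered saline (PBS), using the 4 libraries labelled as microglia among the 8 libraries of the series; the other 4 are of brain T cells. All mice were C57BL/6 and 20 to 22 months old. The treated mice were injected with 2 µg of IL-5 a day for 2 days, and the control group is labelled PBS. Microglia were sorted from the brain by surface markers that the labels do not name, total RNA was extracted, and 75-base single-end reads were counted per gene. Each group held 2 libraries, replicate 1 and replicate 2, and the labels do not say whether these came from separate mice, so p-values measure only the spread between these libraries, which may be technical.

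Microglia are the resident macrophages of the brain. They sense extracellular nucleotides, chemokines and debris through surface receptors such as P2ry12, Cx3cr1 and Trem2, take up dying cells and myelin, and degrade them in lysosomes. IL-5 is a cytokine best known for the survival and activation of eosinophils and of some B cells. It binds a receptor made of the specific chain Il5ra and the shared chain Csf2rb, and signals through the kinase Jak2 and the transcription factors Stat5a and Stat5b.

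The 4 libraries held 23536908 to 30423828 counts in genes. Levels below are counts per 1000000 gene counts after scaling of the libraries by the trimmed mean of M values (TMM), written CPM, and values after IL-5 are given in the order replicate 1, replicate 2. For counting error alone, 0 counts leave room for 3 counts, a limit of 0.0939 to 0.153 CPM across the libraries. The libraries carried the markers of the cells named in the labels: P2ry12 measured 3019.9 and 2242 CPM with PBS against 2053 and 2331 CPM with IL-5, Tmem119 4115 and 4559 CPM with PBS against 1735 and 2822 CPM with IL-5, and Cx3cr1 1201 and 1251 CPM with PBS against 866 and 1000.4 CPM with IL-5. Both Tmem119 and Cx3cr1 were lower in each IL-5 library than in each PBS library, and the P2ry12 values of the groups overlapped.

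IL-5 replicate 1 stood apart from the other 3 libraries. It had the fewest gene counts, 13172 genes with a count against 14318 to 14624, 25.5% of its reads outside annotated genes against 15.2% to 17.0%, and 25.9% of its gene counts in its 10 most abundant genes against 19.8% to 20.9%. On the first principal component of the 4 libraries, which held 52.0% of the variance, it lay at 199 and the others between -79.1 and -53.9. Among 1475 genes with a mean of at least 100 CPM, 36.7% to 45.2% were over 2-fold apart between IL-5 replicate 1 and each other library. IL-5 replicate 2 lay close to the controls: 1.42% and 2.03% of those genes were over 2-fold apart from PBS replicates 1 and 2, against 0.407% between the PBS libraries. The median absolute log2 difference was 0.219 and 0.281 for IL-5 replicate 2 against the PBS libraries and 0.214 between the PBS libraries.

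**Figure D1:**
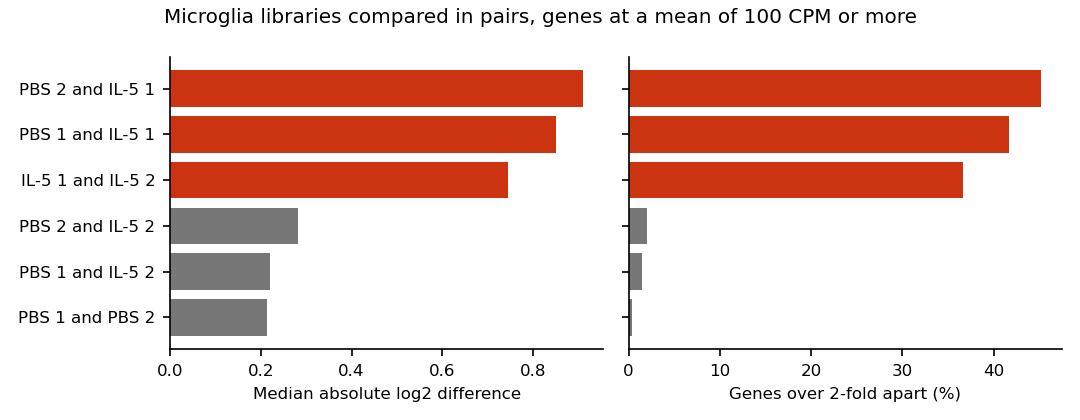
The left panel gives the median absolute log2 difference and the right panel the percentage of genes over 2-fold apart for each pair of microglia libraries, over genes with a mean of at least 100 CPM. The 3 red bars are the pairs with IL-5 replicate 1, at 36.7% to 45.2% of genes over 2-fold apart, and the grey bars are the other pairs, at 0.407% to 2.03%.

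The distance of IL-5 replicate 1 varied with transcript length. Genes with a summed exon length of up to 500 bases had a median log2 difference from the PBS mean of 1.45 in IL-5 replicate 1, and genes of 500 to 1000 bases one of 1.18. The median was -0.51 for genes of 2000 to 4000 bases and 0.33 above 8000 bases. In IL-5 replicate 2 the same medians were 0.23, 0.22, 0.037 and 0.025, and between the PBS libraries 0.33, 0.12, -0.015 and 0.035. A mean of the 2 IL-5 libraries therefore carries the length pattern of replicate 1, and the genes named below are given with the value of each library. The part of transcript length, reads outside genes and detection in the group differences was not tested beyond an adjustment of the libraries for length. That adjustment, called the adjustment for transcript length below, used summed exon length. It covers all annotated exons of a gene and can exceed the length of the transcript expressed, so the adjustment can be incomplete.

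**Figure D2:**
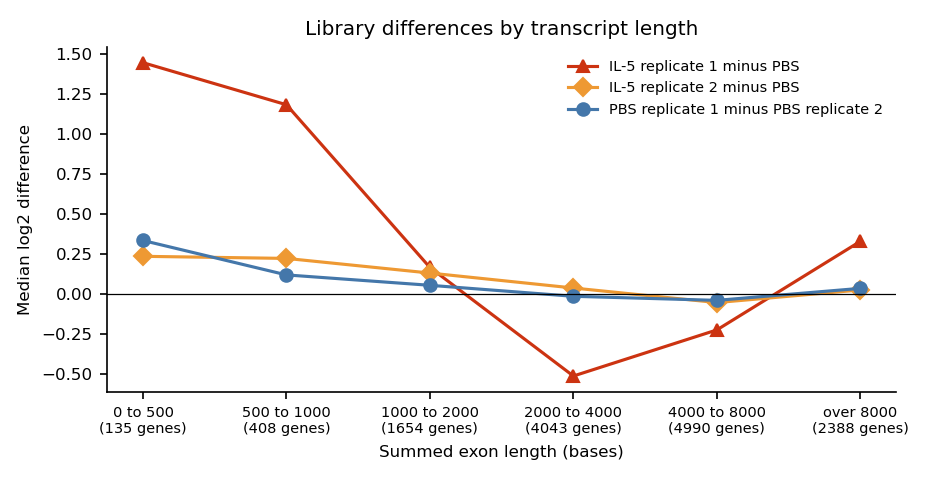
Median log2 difference of TMM-scaled CPM (vertical axis) for genes in 6 classes of summed exon length in bases (horizontal axis, with the number of genes). The line of IL-5 replicate 1 minus the PBS mean starts at 1.45 and crosses 0 between the third and the fourth class, and the other lines stay between -0.054 and 0.33.

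Many genes were not detected in IL-5 replicate 1 alone. Of the genes with at least 100 counts in each of the other 3 libraries, 218 had 0 counts in IL-5 replicate 1, against 11 to 17 genes at 0 in each other library by the same measure. They included Clec14a, an endothelial surface lectin-like protein, at 76.7, 78.4 and 68.6 CPM in the other libraries, and Nqo1, an antioxidant quinone reductase, at 22.5, 17.9 and 42.3 CPM. Of 24924 genes, those with at least 100 counts in both PBS libraries and 0 in both IL-5 libraries numbered 35, and those with the reverse pattern 7. Of the 13764 genes tested, 1379 were at 0 in IL-5 replicate 1, against 493 to 581 in the other libraries. The part of this in the numbers 35 and 7 was not tested. In the other direction, Ly96, the coreceptor of Toll-like receptor 4, measured 114 and 131 CPM with PBS against 677 and 118 CPM with IL-5 (log2 fold change 1.70 ± 0.78 SE), and without IL-5 replicate 1 its log2 fold change was -0.044. Rpa3, a subunit of the single-stranded DNA binding complex, measured 33.0 and 28.6 CPM with PBS against 176 and 33.3 CPM with IL-5. For Ly96 and Rpa3 IL-5 replicate 2 lay within or next to the range of the controls.

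Across all genes the comparison asked which transcripts of microglia differed after IL-5. In the edgeR quasi-likelihood test 0 of 13764 genes were higher (0%) and 0 lower (0%) at a Benjamini-Hochberg adjusted p under 0.05, with a smallest adjusted p of 0.964. At an unadjusted p under 0.05 stood 246 higher (1.79%) and 371 lower genes (2.7%), and 162 and 400 with library-size scaling, which moved the median log2 fold change of all genes from -0.023 to -0.15. DESeq2, run as an alternative on the same counts, called 18 genes higher (0.131%) and 49 lower (0.356%), and of these 67 genes 42 had 0 counts in both libraries of a group. Without IL-5 replicate 2, which leaves IL-5 replicate 1 alone against the PBS libraries, edgeR called 532 higher and 723 lower. Without IL-5 replicate 1 it called 0 and 0 of 15054 genes, and 255 higher and 613 lower genes had an unadjusted p under 0.05. The groups did not overlap for 2398 genes with IL-5 above PBS (17.4%) and for 2901 with IL-5 below PBS (21.1%). With 2 libraries a group an exact two-sided permutation test cannot give a p below 0.333, the value of every gene without overlap. If the labels made no difference, a share of about 0.333 of genes over both directions would be without overlap. Lack of overlap, here and below, is a description and by itself no evidence of a difference.

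The genes with the smallest edgeR p on the lower side included several that were near 0 after IL-5 in both libraries. Itga7, an integrin that binds laminin, measured 28.4 and 14.9 CPM with PBS against 0.102 and 0.136 CPM with IL-5, and Rab3d, a GTPase of secretory vesicles, 31.2 and 15.4 CPM with PBS against 0.357 and 0.818 CPM with IL-5. Fzr1, an activator of the anaphase-promoting complex, measured 46.6 and 82.9 CPM with PBS against 9.91 and 5.59 CPM with IL-5 (log2 fold change -3.06 ± 0.62 SE), and Snd1, an RNA-binding nuclease, 41.8 and 26.1 CPM with PBS against 3.57 and 4.81 CPM with IL-5. At higher levels, Plxdc1, a plexin-domain membrane protein (GRCm38 chromosome 11, 97923238 to 97986444), measured 100.5 and 122 CPM with PBS against 21.2 and 17.0 CPM with IL-5 (log2 fold change -2.54 ± 0.44 SE). Slc2a8, an intracellular glucose transporter (GRCm38 chromosome 2, 32972990 to 32982083), measured 118 and 122 CPM with PBS against 43.6 and 40.6 CPM with IL-5 (log2 fold change -1.51 ± 0.39 SE). For Plxdc1 and Slc2a8 the IL-5 libraries lay within a few CPM of each other and below both controls. Each of these genes had an edgeR adjusted p of at least 0.964, and in DESeq2 Itga7 (adjusted p = 2.3e-06), Plxdc1 (0.0009), Rab3d (0.00066), Fzr1 (0.0046) and Snd1 (0.032) passed while Slc2a8 (0.12) did not.

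On the higher side, the IL-5 libraries differed more between themselves. Itpr1, the calcium channel of the endoplasmic reticulum, measured 10.7 and 6.33 CPM with PBS against 86.7 and 29.8 CPM with IL-5 (log2 fold change 2.78 ± 0.72 SE). Actr6, an actin-related subunit of a chromatin remodelling complex, measured 16.9 and 13.9 CPM with PBS against 65.3 and 47.4 CPM with IL-5 (log2 fold change 1.87 ± 0.52 SE). The noncoding transcript Gt(ROSA)26Sor (GRCm38 chromosome 6, 113067428 to 113077333, annotated as antisense) measured 28.4 and 28.4 CPM with PBS against 164 and 73.1 CPM with IL-5 (log2 fold change 2.06 ± 0.52 SE); the strand setting of the counting is not given in the sources used here, so reads of overlapping genes on the other strand cannot be told apart. Hbb-y, an embryonic beta-like globin with close paralogs, measured 1.44 and 4.38 CPM with PBS against 62.9 and 17.2 CPM with IL-5 and was called by DESeq2 (adjusted p = 0.024) but not by edgeR (adjusted p = 0.964). In each of these 4 genes IL-5 replicate 1 was the highest library and IL-5 replicate 2 lay between it and the controls.

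A criterion chosen after the values were seen took the abundant genes, those with a mean of at least 100 CPM, in which each IL-5 library was over 1.5-fold above or below each PBS library. Of 1475 abundant genes 13 met it on the higher side (0.881%) and 36 on the lower side (2.44%). With size factors from relative log expression (RLE) the numbers were 15 and 30, and with library-size scaling 10 and 36. None had an edgeR adjusted p under 0.05, and 10 of the 13 and 28 of the 36 had an unadjusted p under 0.05, as did 79 of all 1475 abundant genes; the criterion selects on the same values, so these numbers describe the choice and support nothing. The higher genes had a median summed exon length of 1237 bases and the lower genes one of 3582 bases, against 2847 for all abundant genes.

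Of the 13 higher genes, 4 stand on the marker lists of cytotoxic lymphocytes or B cells. Gzma, the protease granzyme A, measured 59.0 and 36.9 CPM with PBS against 214 and 114 CPM with IL-5 (log2 fold change 1.77 ± 0.49 SE), and Nkg7, a granule membrane protein, 66.0 and 80.2 CPM with PBS against 198 and 136 CPM with IL-5 (log2 fold change 1.19 ± 0.40 SE). The chemokine Ccl5 measured 81.0 and 107 CPM with PBS against 185 and 219.9 CPM with IL-5 (log2 fold change 1.11 ± 0.39 SE), and Cd79a, a signalling chain of the B cell receptor, 70.9 and 92.0 CPM with PBS against 250.4 and 159 CPM with IL-5 (log2 fold change 1.33 ± 0.42 SE). Hcst, the DAP10 adaptor of activating receptors on lymphocytes and myeloid cells, measured 64.9 and 54.8 CPM with PBS against 332 and 114 CPM with IL-5 (log2 fold change 1.90 ± 0.57 SE). The groups did not overlap for any of these genes, and Ccl5 was the gene of this set with the higher value in IL-5 replicate 2. The others included Clec4a3, a C-type lectin receptor of myeloid cells, at 170.3 and 187 CPM with PBS against 484 and 302 CPM with IL-5, Dram2, a lysosomal membrane protein, at 122 and 139.8 CPM with PBS against 243 and 219 CPM with IL-5, and Denr, a factor of translation reinitiation, at 81.5 and 81.4 CPM with PBS against 184 and 124 CPM with IL-5.

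Of the 36 lower genes, Vtn, the matrix protein vitronectin (GRCm38 chromosome 11, 78499091 to 78502324), measured 257 and 209.6 CPM with PBS against 40.2 and 85.7 CPM with IL-5 (log2 fold change -1.89 ± 0.49 SE). Vtn stands on the marker list of mural cells, and the part of these cells in its lower value was not tested. Tmem184b, a multi-pass membrane protein, measured 135 and 189 CPM with PBS against 51.6 and 63.9 CPM with IL-5 (log2 fold change -1.49 ± 0.41 SE). Irf5, a transcription factor downstream of Toll-like receptors, measured 410.4 and 401 CPM with PBS against 111 and 246 CPM with IL-5 (log2 fold change -1.18 ± 0.49 SE). In Tmem184b the IL-5 libraries lay close together, and in Vtn and Irf5 replicate 1 was much the lower.

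Other genes named from this set were chosen for their known roles at the cell surface or in signalling. Tnfrsf1a, the receptor through which soluble TNF signals, measured 246 and 287 CPM with PBS against 60.2 and 145 CPM with IL-5 (log2 fold change -1.38 ± 0.51 SE), and Tnfrsf21, death receptor 6, 219.6 and 226 CPM with PBS against 58.5 and 117 CPM with IL-5. Itgb2, the beta chain of the leukocyte integrins, measured 206 and 177 CPM with PBS against 26.6 and 99.97 CPM with IL-5 (log2 fold change -1.60 ± 0.64 SE). Akt1, a kinase downstream of growth factor receptors, measured 184 and 198 CPM with PBS against 69.3 and 97.5 CPM with IL-5, Mapkapk2, a kinase activated by p38, 174 and 186 CPM with PBS against 104 and 87.8 CPM with IL-5, and Ncf4, a cytosolic subunit of the NADPH oxidase, 147 and 159 CPM with PBS against 37.8 and 88.4 CPM with IL-5. For Itgb2 and Ncf4 IL-5 replicate 1 was much the lower of the IL-5 libraries, whereas for Mapkapk2 replicate 2 was the lower.

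**Figure D3:**
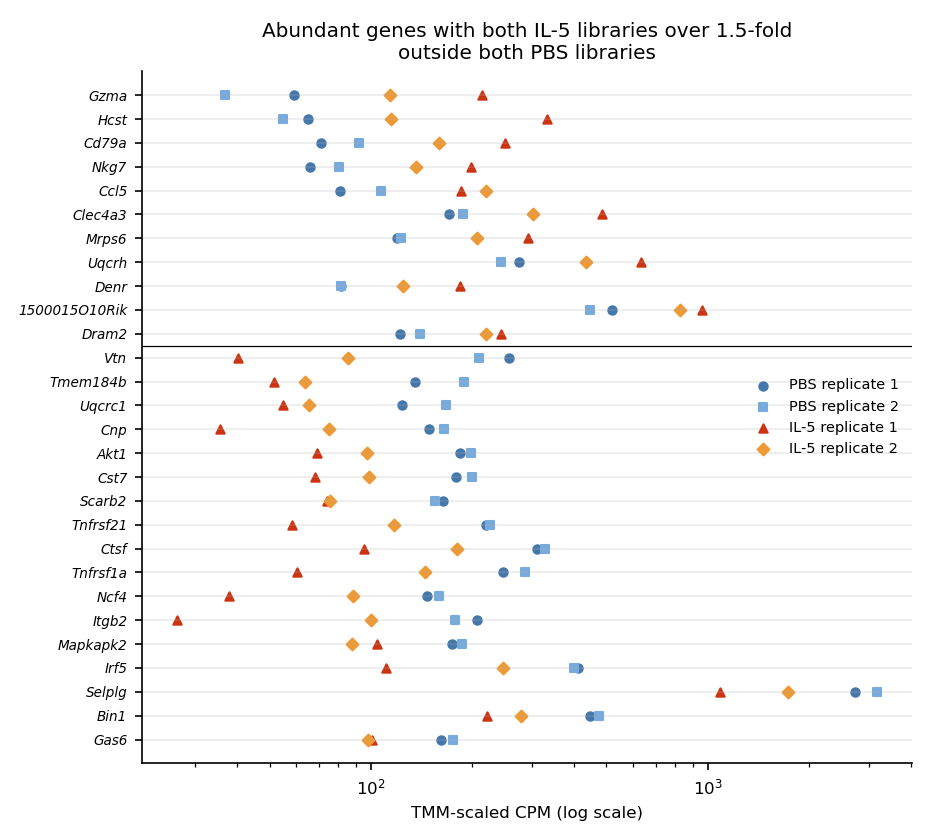
TMM-scaled CPM on a log axis in each of the 4 microglia libraries (blue circles and squares for PBS, red triangles and orange diamonds for IL-5) for the genes of this set that the text names, 11 of the 13 higher genes above the line and 17 of the 36 lower genes below it. IL-5 replicate 2 is the more distant of the IL-5 libraries for Mapkapk2, Gas6 and Ccl5, and IL-5 replicate 1 in the other rows.

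Gene lists are described by their counts and medians beside those over all genes: 6744 of 13764 genes tested had a log2 fold change above 0, with a median of -0.023. No member of any list passed in edgeR. The median differences of each IL-5 library from the PBS mean share the same control libraries, so they are given side by side and were not set against each other. Over all genes these medians were -0.10 in IL-5 replicate 1 and 0.031 in IL-5 replicate 2. List medians are of edgeR fold changes and medians by library are of log2 CPM differences, so a list median need not lie between them. Median summed exon lengths were 3556 bases for homeostatic receptors, 2608.5 for disease-associated microglia, 3701.5 for Toll-like receptors and 3260 for MHC class I. Among all genes of 2000 to 4000 bases the median in IL-5 replicate 1 was -0.51.

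None of the genes of the IL-5 receptor and its signalling passed the test, and most overlapped between the groups. Il5ra, the chain that binds IL-5 (GRCm38 chromosome 6, 106710357 to 106749037), was not detected in any of the 4 libraries, with 0 counts in each. Csf2rb, the shared signal-transducing chain, measured 26.6 and 15.4 CPM with PBS against 57.8 and 10.5 CPM with IL-5 (log2 fold change 0.70 ± 0.86 SE), and its close paralog Csf2rb2 6.23 and 8.39 CPM with PBS against 16.6 and 6.04 CPM with IL-5, with reads that may be split between them. Without IL-5 replicate 1 the log2 fold change of Csf2rb was -0.99. Csf2ra, the GM-CSF chain that pairs with Csf2rb, measured 71.1 and 71.9 CPM with PBS against 11.6 and 37.3 CPM with IL-5 (log2 fold change -1.55 ± 0.64 SE; edgeR adjusted p = 0.964).

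Downstream of the receptor, Jak2 measured 15.2 and 15.1 CPM with PBS against 12.05 and 6.41 CPM with IL-5, Stat5a 16.5 and 13.4 CPM with PBS against 2.96 and 0.443 CPM with IL-5 (log2 fold change -3.14 ± 1.30 SE) and Stat5b 20.8 and 17.7 CPM with PBS against 15.8 and 9.85 CPM with IL-5. The feedback inhibitor Socs3 measured 286 and 253 CPM with PBS against 92.3 and 172 CPM with IL-5 (log2 fold change -1.03 ± 0.44 SE), and Cish, a target of STAT5, 11.2 and 22.9 CPM with PBS against 3.42 and 16.1 CPM with IL-5. In Jak2, Stat5a, Stat5b and Socs3 both IL-5 libraries lay below both PBS libraries, and the Cish values overlapped. Of the 28 tested members of this pathway list, 19 were below 0, 9 lay below the controls without overlap and 1 above (21.1% and 17.4% of all genes), with a median of -0.24 and medians by library of -0.36 in IL-5 replicate 1 and -0.15 in IL-5 replicate 2. Il4ra, a receptor chain of the related cytokines IL-4 and IL-13, measured 58.8 and 55.3 CPM with PBS against 26.04 and 17.9 CPM with IL-5 (log2 fold change -1.38 ± 0.50 SE).

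Genes of the homeostatic state, which mark microglia at rest, were mostly lower after IL-5 without passing the test. Among receptors for purines and chemokines and related surface proteins, 11 of 14 were below 0 with a median of -0.42, and 9 did not overlap on the lower side against 0 on the higher, where 21.1% and 17.4% of all genes did so. Selplg, the ligand of P-selectin, measured 2738 and 3175 CPM with PBS against 1088 and 1729 CPM with IL-5 (log2 fold change -1.07 ± 0.45 SE). The log2 fold change of Tmem119 was -0.93, SE 0.46, Cx3cr1 -0.39, SE 0.40, and P2ry12 -0.26, SE 0.43, which was 0.053 with the adjustment for transcript length. Gpr34, a lysophosphatidylserine receptor, had overlapping values of 2397 and 1971 CPM with PBS against 3349.6 and 2059 CPM with IL-5. Among secreted proteins and other homeostatic genes 18 of 28 were below 0 with a median of -0.25. Bin1, a membrane-bending protein linked to Alzheimer's disease risk, measured 446 and 476 CPM with PBS against 221 and 279 CPM with IL-5 (log2 fold change -0.88 ± 0.38 SE), and Olfml3, a secreted glycoprotein, 1516 and 1726 CPM with PBS against 686 and 1086 CPM with IL-5.

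The medians of both homeostatic lists lay below 0 in each IL-5 library. They were -0.56 in IL-5 replicate 1 and -0.25 in IL-5 replicate 2 for the receptors, and -0.28 in IL-5 replicate 1 and -0.30 in IL-5 replicate 2 for the other genes. Between the PBS libraries the same medians were -0.11 and -0.090. The wider marker list of microglia had a median of -0.42 with 13 of 19 members below 0, while its summed level was 60690.4 and 57994 CPM with PBS against 79612 and 48167 CPM with IL-5. The sum was highest in IL-5 replicate 1, in which C1qa and C1qb, chains of complement C1q, measured 32327 and 25429 CPM. In bulk RNA, fewer cells of a type and less RNA per cell cannot be told apart.

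Disease-associated microglia, a state seen around plaques and in aged brain, depend on Trem2 and Tyrobp and express lipid and lysosomal genes. Of 30 tested genes of this state 22 were below 0, with a median of -0.56 and 17 below against 3 above without overlap (21.1% and 17.4% of all genes). The medians by library were -0.94 in IL-5 replicate 1 and -0.22 in IL-5 replicate 2. Axl, a receptor kinase for apoptotic cells, measured 83.0 and 78.8 CPM with PBS against 14.2 and 20.4 CPM with IL-5 (log2 fold change -2.23 ± 0.48 SE). Its bridging ligand Gas6 measured 161 and 176 CPM with PBS against 101 and 98.3 CPM with IL-5 (log2 fold change -0.76 ± 0.37 SE). Receptor and ligand were thus both lower in each IL-5 library, Axl with DESeq2 adjusted p = 0.023 and Gas6 with 0.7, and with edgeR adjusted p = 0.964 and 0.964.

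Trem2 measured 3341 and 2917 CPM with PBS against 3020.2 and 2383 CPM with IL-5 (log2 fold change -0.21 ± 0.43 SE), with overlapping groups and a log2 fold change of 0.11 with the adjustment for transcript length. Its adaptor Tyrobp measured 4866 and 4235 CPM with PBS against 17615 and 4206 CPM with IL-5 (log2 fold change 1.26 ± 0.71 SE), a difference carried by IL-5 replicate 1, without which the value was -0.11. Apoe, a lipid carrier, measured 3177 and 3723 CPM with PBS against 1382 and 2742 CPM with IL-5 (log2 fold change -0.74 ± 0.50 SE), and Cst7, an inhibitor of lysosomal cysteine proteases, 179 and 199 CPM with PBS against 68.4 and 99.0 CPM with IL-5 (log2 fold change -1.18 ± 0.40 SE). Of 27 genes of phagocytosis 20 were below 0 with a median of -0.46 and medians by library of -0.74 in IL-5 replicate 1 and -0.30 in IL-5 replicate 2. Scarb1, a scavenger receptor for lipoproteins, measured 110.4 and 75.2 CPM with PBS against 4.799 and 36.5 CPM with IL-5.

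Complement genes had no common direction (9 of 20 above 0, median -0.077, or 0.039 with the adjustment for transcript length and 0.11 without PBS replicate 2). Cd59a, an inhibitor of the membrane attack complex, was the member with the smallest p and measured 64.6 and 39.2 CPM with PBS against 173 and 115 CPM with IL-5 (log2 fold change 1.47 ± 0.46 SE). The chains of C1q, which tags synapses and debris, were high in IL-5 replicate 1 alone: C1qa measured 10139 and 9233 CPM with PBS against 32327 and 8611 CPM with IL-5, and C1qb 16772 and 15598 CPM with PBS against 25429 and 14235 CPM with IL-5.

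Most receptors that detect microbes and their adaptors overlapped between the groups, with 6 of 28 below the controls without overlap, a share like the 21.1% of all genes. Of 28 genes 19 were below 0 with a median of -0.49, and the medians by library were -1.10 in IL-5 replicate 1 and -0.12 in IL-5 replicate 2. Members at an unadjusted p under 0.05 numbered 0 higher and 3 lower, where 1.79% and 2.7% of all genes did. They were Tlr2, a receptor for bacterial lipoproteins, at 111 and 144 CPM with PBS against 37.9 and 72.6 CPM with IL-5 (log2 fold change -1.21 ± 0.47 SE), Tlr12 at 49.8 and 48.7 CPM with PBS against 1.07 and 9.92 CPM with IL-5 (log2 fold change -3.16 ± 1.04 SE), and Irf5. For Tlr2 and Tlr12 both IL-5 libraries lay below both PBS libraries.

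Inflammatory cytokines and regulators of NF-kB had a median of -0.048 with 14 of 29 above 0, or 0.068 with the adjustment for transcript length and 0.036 without PBS replicate 2. Tnf measured 142 and 211 CPM with PBS against 71.1 and 141 CPM with IL-5 (log2 fold change -0.73 ± 0.48 SE) and Il1b 113 and 121 CPM with PBS against 75.6 and 89.2 CPM with IL-5 (log2 fold change -0.51 ± 0.38 SE). Both were lower in each IL-5 library, Tnf by a narrow margin in replicate 2. Ier3, an early response gene, measured 427 and 439 CPM with PBS against 1319 and 463 CPM with IL-5 and was higher in each IL-5 library. Chemokines and their receptors had 14 of 27 above 0 with a median of 0.12, which was -0.50 without IL-5 replicate 2, -0.016 without IL-5 replicate 1, -0.10 without PBS replicate 2 and -0.0094 with the filter at 5 CPM, while the medians by library were -0.37 in IL-5 replicate 1 and 0.025 in IL-5 replicate 2. Ccl4, a chemokine made by activated microglia, measured 2557 and 1951 CPM with PBS against 11163 and 1958 CPM with IL-5 and Cxcr4, the receptor of Cxcl12, 5.04 and 3.51 CPM with PBS against 16.3 and 22.1 CPM with IL-5 (log2 fold change 2.16 ± 0.88 SE). Ccl4 was high in IL-5 replicate 1 alone, and Cxcr4 was higher in both IL-5 libraries.

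Antigen presentation and interferon genes lay further from the controls in IL-5 replicate 1 than in replicate 2. MHC class I and peptide loading genes had a median of -0.41 with 13 of 18 below 0, and medians by library of -0.87 in IL-5 replicate 1 and -0.15 in IL-5 replicate 2. MHC class II genes had a median of -0.22 with medians by library of -0.44 in IL-5 replicate 1 and 0.051 in IL-5 replicate 2, and the list median was 0.053 when IL-5 replicate 1 was left out. H2-Ab1, a beta chain of MHC class II, measured 1210.2 and 1144 CPM with PBS against 915 and 1441 CPM with IL-5. Type I interferon response genes had a median of -0.39 with 19 of 33 below 0, which was 0.043 with the filter at 5 CPM in 2 libraries, with medians by library of -0.85 in IL-5 replicate 1 and -0.24 in IL-5 replicate 2. Interferon gamma response genes had a median of -0.27 with 13 of 21 below 0, which was 0.16 with the adjustment for transcript length. Ifitm3, an antiviral membrane protein, measured 924 and 974 CPM with PBS against 2425 and 993 CPM with IL-5, and Irf7, a transcription factor of the interferon response, 42.9 and 26.2 CPM with PBS against 2.96 and 17.2 CPM with IL-5. Ifitm3 was far above the controls in replicate 1 only, and Irf7 was lower in both IL-5 libraries.

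Lysosomal enzymes lay below the controls in both IL-5 libraries for most members. Lysosomal proteases and their inhibitors had 16 of 18 below 0 with a median of -0.62, and 13 of 18 lay below the controls without overlap, against 21.1% of all genes. Glycosidases, lipases and other hydrolases had 27 of 32 below 0 with a median of -0.61, and 19 of 32 did not overlap on the lower side. The medians by library were -1.36 in IL-5 replicate 1 and -0.25 in IL-5 replicate 2 for proteases, and -1.22 in IL-5 replicate 1 and -0.35 in IL-5 replicate 2 for hydrolases, against 0.044 and 0.037 between the PBS libraries. The median summed exon lengths were 2760.5 and 3677 bases. Among all genes of 2000 to 4000 bases the median in IL-5 replicate 1 was -0.51.

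Ctsf, a cysteine protease of the lysosome, measured 310.4 and 329 CPM with PBS against 95.6 and 179.8 CPM with IL-5 (log2 fold change -1.22 ± 0.45 SE), and Ctsd, an aspartyl protease, 18903 and 22872 CPM with PBS against 5439 and 14205 CPM with IL-5. Neu1, a sialidase, measured 84.6 and 108 CPM with PBS against 41.5 and 50.5 CPM with IL-5 (log2 fold change -1.07 ± 0.41 SE), and Psap, the precursor of the saposins, 1706 and 1778 CPM with PBS against 593 and 1150.2 CPM with IL-5. In Neu1 the IL-5 libraries were close to each other, and in Ctsd and Psap IL-5 replicate 2 lay between replicate 1 and the controls. Membrane proteins, the proton pump and autophagy genes had a median of -0.20 with 18 of 44 above 0. Scarb2, the membrane protein that carries glucocerebrosidase to lysosomes (GRCm38 chromosome 5, 92441314 to 92506833), measured 163 and 155 CPM with PBS against 74.2 and 75.6 CPM with IL-5 (log2 fold change -1.09 ± 0.37 SE; edgeR adjusted p = 0.964). Gabarap, an autophagosome protein, measured 838 and 742 CPM with PBS against 3036 and 1011 CPM with IL-5, in the opposite direction.

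Genes of mitochondrial respiration lay above the controls in both IL-5 libraries for most subunits. The complexes of the respiratory chain pass electrons to oxygen and drive ATP synthase. For complex I 29 of 36 genes were above 0 with a median of 1.07, and 29 lay above the controls without overlap, against 17.4% of all genes. For complexes II to V 31 of 41 were above 0 with a median of 0.96, and 29 did not overlap on the higher side. The size depended on the library: the medians were 1.55 in IL-5 replicate 1 and 0.34 in IL-5 replicate 2 for complex I, and 1.29 in IL-5 replicate 1 and 0.39 in IL-5 replicate 2 for complexes II to V. Between the PBS libraries they were 0.19 and 0.22. The genes are short, with median summed exon lengths of 1644 and 1794 bases against 4304 for all genes. Among all genes of 1000 to 2000 bases the median in IL-5 replicate 1 was 0.17, and among those of 500 to 1000 bases 1.18. With the libraries adjusted by summed exon length the medians were 0.86 and 0.57. This adjustment can be incomplete, and how much of the length pattern remained was not tested.

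Members showed this range. Ndufc1, an accessory subunit of complex I, measured 215 and 179 CPM with PBS against 785 and 275 CPM with IL-5 (log2 fold change 1.43 ± 0.57 SE), and Atp5g1, which encodes the c ring of ATP synthase, 342 and 249 CPM with PBS against 1350.4 and 468 CPM with IL-5 (log2 fold change 1.62 ± 0.59 SE). Uqcrh, the hinge protein of complex III, measured 275 and 244 CPM with PBS against 633 and 435 CPM with IL-5 (log2 fold change 1.04 ± 0.41 SE). Uqcrc1, a core protein of the same complex with a summed exon length of 4135 bases against 1237 for Uqcrh, went the other way at 124 and 167 CPM with PBS against 54.8 and 65.3 CPM with IL-5 (log2 fold change -1.28 ± 0.40 SE). Neither passed in edgeR (adjusted p = 0.964 and 0.964). In Ndufc1, Atp5g1 and Uqcrh, IL-5 replicate 2 lay nearer to the controls than replicate 1 did.

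Ribosomal protein genes, many of which have near-identical processed copies that counting may split, had a similar pattern in the small subunit (27 of 33 above 0, median 0.61, 24 without overlap above) and a smaller one in the large subunit (30 of 45, median 0.22, 23), where 17.4% of all genes lay above without overlap. The medians by library were 0.87 in IL-5 replicate 1 and 0.21 in IL-5 replicate 2 for the small subunit, and 0.22 in IL-5 replicate 1 and 0.20 in IL-5 replicate 2 for the large. The median summed exon lengths were 1734 and 1781 bases, against 4304 for all genes. Rpl39 measured 117 and 103 CPM with PBS against 489 and 137 CPM with IL-5 (log2 fold change 1.502 ± 0.63 SE). Mitochondrial ribosomal proteins had 31 of 55 above 0 with a median of 0.15, and medians of 0.058 in IL-5 replicate 1 and 0.20 in IL-5 replicate 2. Mrps6, a member of their small subunit, measured 119 and 123 CPM with PBS against 293 and 207 CPM with IL-5 (log2 fold change 1.04 ± 0.39 SE). It was higher in both IL-5 libraries, while the list as a whole was near 0 in IL-5 replicate 1.

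Other parts of protein synthesis differed from this. Translation factors had a median of -0.11 (12 of 33 above 0), or 0.14 with the adjustment for transcript length. Aminoacyl-tRNA synthetases had a median of -0.49 (8 of 23 above 0). Their medians by library, -0.31 in IL-5 replicate 1 and 0.050 in IL-5 replicate 2, both lay above that list median. Mars, the methionyl-tRNA synthetase (GRCm38 chromosome 10, 127296221 to 127311786), measured 51.1 and 39.0 CPM with PBS against 4.85 and 3.65 CPM with IL-5 (log2 fold change -3.41 ± 0.64 SE; edgeR adjusted p = 0.964, DESeq2 adjusted p = 0.0013). Lars, the leucyl enzyme, measured 12.9 and 2.64 CPM with PBS against 57.4 and 22.1 CPM with IL-5 and was higher in each IL-5 library. The integrated stress response, in which the transcription factor Atf4 induces amino acid enzymes, and stress of the endoplasmic reticulum had 22 of 28 genes below 0 with a median of -0.50. Dnajb9, a chaperone of that compartment, went the other way at 66.3 and 71.2 CPM with PBS against 139 and 116 CPM with IL-5. Asns, the asparagine synthetase and a target of Atf4, was at 0 in both IL-5 libraries and at 3.57 and 4.59 CPM after PBS.

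Heat shock chaperones had 21 of 23 above 0 with a median of 0.40, and 7 of them lay above the controls without overlap, against 17.4% of all genes. Their medians were 0.56 in IL-5 replicate 1 and 0.25 in IL-5 replicate 2, and -0.14 between the PBS libraries. Hspe1, the mitochondrial cochaperonin, measured 199 and 201 CPM with PBS against 612 and 232 CPM with IL-5, and Hsp90aa1, an inducible cytosolic chaperone, 159.6 and 209.7 CPM with PBS against 327 and 252 CPM with IL-5. In both the groups did not overlap. Hspa1b, an inducible Hsp70 with a near-identical paralog that counting may split, measured 425 and 513 CPM with PBS against 1206 and 319.9 CPM with IL-5, above the controls in replicate 1 and below them in replicate 2. Proteasome subunits had a median of 0.14 with 17 of 31 above 0, which turned to -0.028 with library-size scaling and -0.083 without IL-5 replicate 2. Psmd6, a subunit of the regulatory particle, measured 95.7 and 60.2 CPM with PBS against 26.8 and 34.3 CPM with IL-5 (log2 fold change -1.35 ± 0.48 SE), while the core subunit Psmb5 measured 106 and 106 CPM with PBS against 303 and 128 CPM with IL-5.

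Glycolysis genes had 20 of 27 below 0 with a median of -0.36, and nearly all of this lay in IL-5 replicate 1, since the medians were -1.12 in IL-5 replicate 1 and 0.012 in IL-5 replicate 2. Gapdh measured 474 and 561 CPM with PBS against 159.8 and 504 CPM with IL-5 and Aldoa 699.7 and 884 CPM with PBS against 319 and 730.1 CPM with IL-5, both enzymes of the pathway. The tricarboxylic acid cycle and fatty acid oxidation had a median of -0.20, which was 0.024 with the adjustment for transcript length and 0.074 without IL-5 replicate 1. Dlst, a subunit of the oxoglutarate dehydrogenase complex, measured 55.5 and 84.7 CPM with PBS against 11.6 and 27.3 CPM with IL-5. Sterol genes had a median of -0.25 with 21 of 31 below 0, beside a median of 0.51 between the PBS libraries.

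Genes of RNA splicing and retained nuclear RNA had 20 of 29 above 0 with a median of 0.30. Snrpe, a core protein of spliceosomal particles, measured 98.9 and 110.3 CPM with PBS against 567 and 147 CPM with IL-5 (log2 fold change 1.77 ± 0.65 SE), and Malat1, an abundant nuclear noncoding RNA, 3558 and 3601 CPM with PBS against 7939 and 4882 CPM with IL-5. Cell cycle genes, which are low in resting microglia, had a median of -0.62 with 19 of 32 below 0, and medians of -0.59 in IL-5 replicate 1 and -0.61 in IL-5 replicate 2. Between the PBS libraries the median was -0.34. Of the 38 genes listed, 14 and 11 were at 0 in the IL-5 libraries, against 4 and 4 in the PBS libraries. Tpx2, a spindle protein, measured 14.1 and 1.01 CPM after PBS and 0 in both IL-5 libraries, and Mcm3, a replication helicase subunit, 0.219 and 1.18 CPM with PBS against 22.9 and 6.72 CPM with IL-5. Both had values in the PBS libraries that were several-fold apart. Integrins and adhesion genes had 19 of 25 below 0 with a median of -0.37. The remaining state lists had medians of -0.33 for alternative activation, -0.39 for eicosanoid genes, -0.0077 for oxidative defence, 0.052 for chromatin regulators, 0.13 for immediate early genes, -0.16 for actin and motility, -0.33 for iron and heme, -0.34 for growth factors and 0.049 for senescence. Of these, the medians of chromatin regulators, immediate early genes and senescence were -0.17, -0.028 and -0.15 with library-size scaling. With the adjustment for transcript length those of oxidative defence, chromatin regulators and actin were 0.17, -0.067 and 0.023. Without IL-5 replicate 1 those of alternative activation, oxidative defence, chromatin regulators, actin and senescence were 0.059, 0.052, -0.31, 0.0011 and -0.0019. Without PBS replicate 1 those of oxidative defence, immediate early genes and chromatin regulators were 0.069, -0.13 and -0.041. The signs of oxidative defence and chromatin regulators also turned in further settings.

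**Figure D4:**
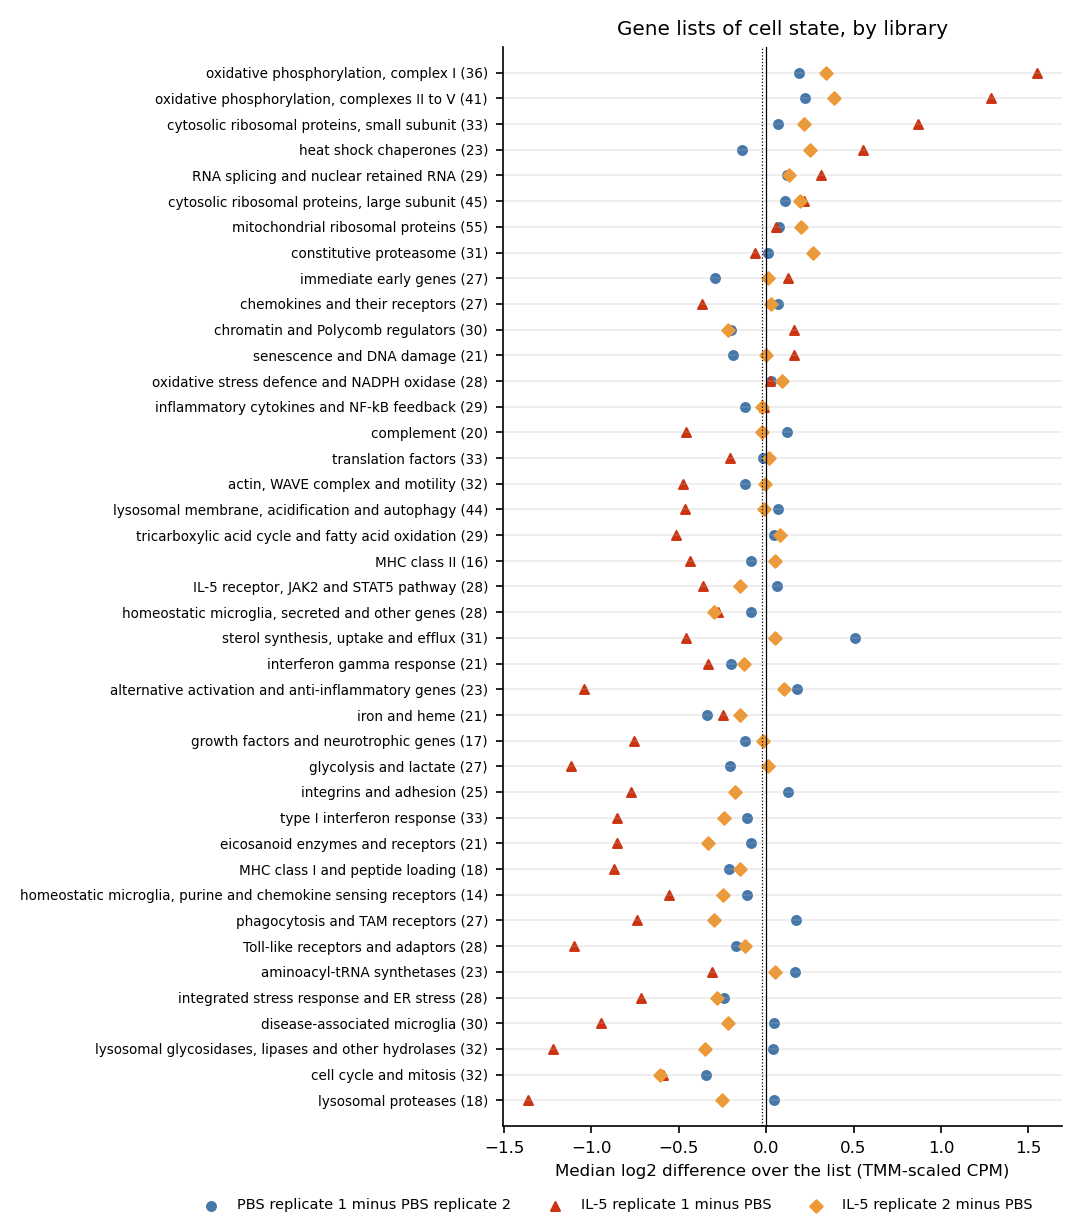
Median log2 difference over each of 41 lists of cell state (number of tested genes in brackets) for IL-5 replicate 1 (red triangles) and IL-5 replicate 2 (orange diamonds) against the PBS mean, and between the PBS libraries (blue circles). The solid line marks 0 and the dotted line the median fold change of all genes, -0.023; complex I lies at 1.55 in replicate 1 and 0.34 in replicate 2.

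The sorted libraries also held transcripts of other cell types. Markers of the choroid plexus, the epithelium that makes cerebrospinal fluid, summed to 41941 and 34648 CPM with PBS against 73521 and 60601 CPM with IL-5, and 12 of 12 were above 0 with a median of 0.69. The medians were 0.71 in IL-5 replicate 1 and 0.67 in IL-5 replicate 2, and 0.49 between the PBS libraries. Enpp2, the secreted lysophospholipase autotaxin, measured 2431 and 1702 CPM with PBS against 4179 and 3389.7 CPM with IL-5, and 1500015O10Rik, a secreted peptide precursor of this epithelium, 520.0 and 445 CPM with PBS against 958 and 825 CPM with IL-5 (log2 fold change 0.89 ± 0.39 SE). Ttr, the thyroid hormone carrier transthyretin, made up most of the sum at 38027 and 31653 CPM with PBS against 67193 and 54986 CPM with IL-5 (log2 fold change 0.81 ± 0.49 SE). The genes of smallest p on the higher side also held Htr2c, a serotonin receptor strongly expressed in this tissue, at 24.2 and 15.5 CPM with PBS against 97.2 and 47.6 CPM with IL-5 (log2 fold change 1.87 ± 0.57 SE), and Slc4a10, a bicarbonate transporter found there, at 22.4 and 30.1 CPM with PBS against 82.0 and 66.6 CPM with IL-5 (log2 fold change 1.501 ± 0.46 SE). Of the 12 markers 7 lay above both controls in both IL-5 libraries, against 17.4% of all genes, and the others overlapped, and the part of this tissue in the other differences was not tested.

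Lymphocyte markers differed by type. The cytotoxic and natural killer list summed to 286 and 290.1 CPM with PBS against 687 and 567 CPM with IL-5, with 9 of 10 above 0 and a median of 0.81. The median was -0.16 without IL-5 replicate 2. The sum was mostly Gzma, Nkg7 and Ccl5, and 5 of its 12 genes were at 0 in IL-5 replicate 1. B cell markers summed to 230.2 and 267 CPM with PBS against 572 and 425 CPM with IL-5, with 9 of 10 above 0 and a median of 1.03. Ly6d, a surface protein of developing B cells and plasmacytoid cells, measured 78.0 and 64.6 CPM with PBS against 201 and 108 CPM with IL-5. The T cell list went from 63.6 and 91.1 CPM after PBS to 23.4 CPM in IL-5 replicate 1 and 169.6 CPM in replicate 2, and 7 of its 13 genes were at 0 in replicate 1, Cd3e among them. The part of lymphocytes in the higher values of Gzma, Nkg7, Ccl5, Hcst and Cd79a was not tested.

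Markers of neutrophils summed to 14985 and 17508 CPM with PBS against 20578 and 13167 CPM with IL-5. S100a8, the main neutrophil transcript here, measured 6031 and 6561 CPM with PBS against 12607 and 5104 CPM with IL-5, and Ngp, a granule protein, 2703 and 3584 CPM with PBS against 958 and 2546 CPM with IL-5, so these values of IL-5 replicate 1 lay on opposite sides of the controls. Eosinophil markers, of interest as targets of IL-5, summed to 111 and 162 CPM with PBS against 98.5 and 97.8 CPM with IL-5, most of it Prg2 at 86.1 and 109 CPM with PBS against 73.5 and 65.4 CPM with IL-5. Of these 10 genes 6 were at 0 in IL-5 replicate 1, against 1 or 2 in each other library. The list median of -0.92 was 0.57 without PBS replicate 2, and the medians by library were -3.19 in IL-5 replicate 1 and 0.013 in IL-5 replicate 2. Oligodendrocyte markers summed to 691 and 907 CPM with PBS against 299 and 557 CPM with IL-5, with 9 of 10 below 0 and a median of -1.12. Cnp, a myelin enzyme, measured 148 and 164 CPM with PBS against 35.5 and 75.1 CPM with IL-5 (log2 fold change -1.497 ± 0.48 SE), and Mbp, a structural protein of myelin, 210.4 and 409 CPM with PBS against 47.8 and 191 CPM with IL-5. Both were lower in each IL-5 library, and neuronal markers were low throughout, at 62.3 and 73.8 CPM with PBS against 85.7 and 48.0 CPM with IL-5.

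**Figure D5:**
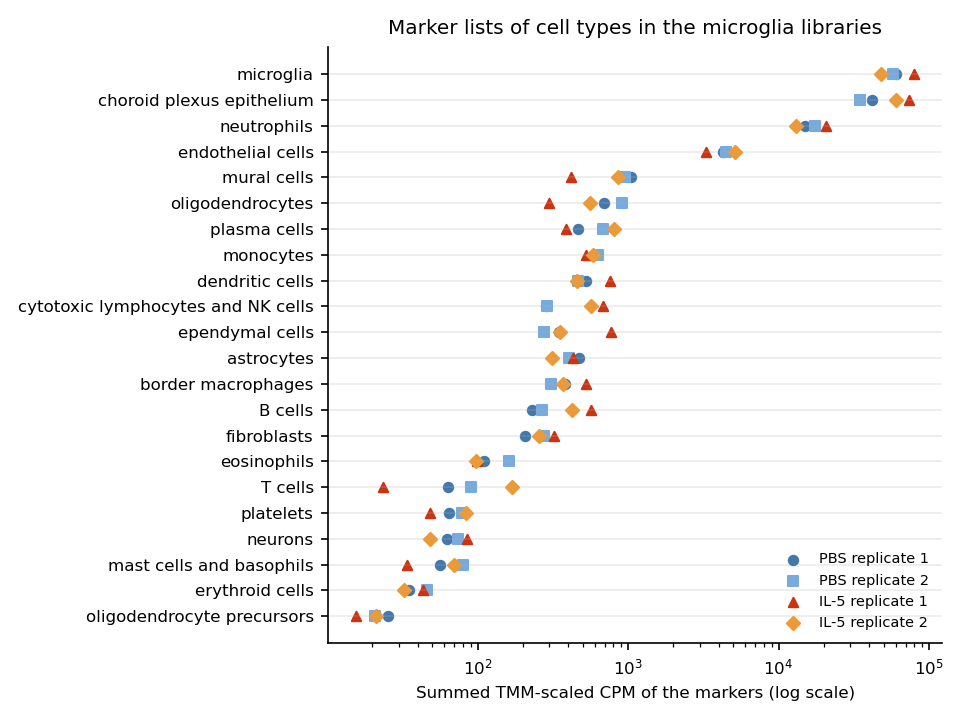
Summed TMM-scaled CPM (log axis) of the marker list of each of 22 cell types in the 4 microglia libraries. Choroid plexus, cytotoxic lymphocyte, B cell and ependymal markers lie higher in both IL-5 libraries than in both PBS libraries, the ependymal ones narrowly in replicate 2. Oligodendrocyte, eosinophil, mural cell and monocyte markers lie lower in both. Of the 8 mural cell markers 2 do so without overlap, Vtn among them. T cell markers range from 23.4 to 169.6 CPM between the IL-5 libraries.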

How the data were processed

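The authors deposited whole-number read counts per gene for 8 libraries, with no scaling. Per the submitters' processing notes, the tools named are STAR 2.5.3a, DESeq2 1.1, Cufflinks 2.0, FastQC 1.0.0 and bcl2fastq 2.20.0.422, with builds mm10 and GRCm38; the counting tool and strand setting are not given in the sources used here. Of 24953 rows, 2 summary rows (reads outside genes and ambiguous reads, 15.2% to 25.5% and 1.39% to 1.52% of the microglia reads), 26 rows with date-like names, whose microglia IL-5 cells also read as dates, and 1 other row with an unreadable cell were left out. Of the remaining 24924 genes 97.9% matched GENCODE M21, the source of coordinates and lengths.

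The 4 microglia libraries (23536908 to 30423828 gene counts) were compared by edgeR's quasi-likelihood test (edgeR 4.0.16 in R 4.3.3, robust, TMM, filterByExpr with a minimum count of 10, Benjamini-Hochberg, two-sided, threshold 0.05), which kept 13764 genes. The procedure was run on simulated counts with planted fold changes. Only their direction was required to be right, and only at a spread well below that estimated here. The simulation therefore does not show that differences would be found at the spread of these data. Standard errors were the fold change divided by the square root of the F statistic. Levels are TMM-scaled CPM, and library differences use log2 CPM with a prior count of 2. The alternatives, with DESeq2 1.42.0 and limma 3.58.1 among them, are given in the closing section. Of the members of 63 gene lists, 1247 were tested, 49 fell below the filter and 2 were not in the table analysed. Named genes are the 15 of smallest edgeR p in each direction at a mean of at least 10 CPM without overlap, up to 10 per direction called by DESeq2, the 10 per direction by which IL-5 replicate 1 stood furthest from the other libraries at a mean of at least 20 CPM, the 3 most abundant and the 3 of smallest p in each list, and a fixed set of IL-5 pathway and marker genes. Other genes of the abundant set were also named outside this rule, some of them chosen for their known roles. The comparison, lists and rule were chosen with earlier results of these data known. Plots used matplotlib 3.10.9 under Python 3.11.15. T cell libraries entered only the fit of all 8 libraries. Results for some single genes are not reported here.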

Additional observations from a re-analysis of the deposited data

Results flagged for a closer look

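Reads outside annotated genes, which no comparison of the report uses, made up 25.5% of the reads of microglia IL-5 replicate 1 and 17.0% of those of microglia IL-5 replicate 2, above the 15.2% and 16.2% of the PBS libraries. The excess of replicate 2 over the higher control was small, and replicate 1 stood well apart. The same library had the shortest list of detected genes and the length pattern described in the report. The cause was not tested.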

How the results depend on the processing

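The edgeR counts of 0 higher and 0 lower genes held with relative log expression size factors, library-size scaling, no filter on low counts, a filter at 5 CPM in 2 libraries, limma-voom with sample quality weights, all 8 libraries in one fit and the adjustment for transcript length. DESeq2 called 18 genes higher and 49 lower, and the cause was not tested. Over the alternatives, genes at an unadjusted p under 0.05 numbered 128 to 1356 higher and 88 to 2143 lower, and the higher share was 39.9% as reported, 28.8% with library-size scaling and 60.2% with limma-voom. Leaving out each library in turn gave 0 to 532 genes higher and 0 to 723 lower, with the calls only without microglia IL-5 replicate 2, where the single IL-5 library is assumed to vary like the PBS libraries. With the replicate number as a block, edgeR called 0 higher and 0 lower genes (216 and 407 at an unadjusted p under 0.05); the labels do not pair the libraries, whose same-numbered deviations had a correlation of 0.014. Of 58 genes whose log2 fold change was followed 5 turned sign under any alternative. These were Tyrobp, Csf2rb and Ly96 without IL-5 replicate 1, whose values over the fits without each library in turn ran from -0.11 to 1.95, -0.99 to 1.45 and -0.044 to 2.46, and P2ry12 (0.053) and Trem2 (0.11) with the adjustment for length. Not all genes named in the report were among the 58, and some of the others also turned sign without IL-5 replicate 1. Ccl4, C1qa and Hspa1b went from 1.54, 1.08 and 0.70 to -0.20, -0.16 and -0.54. C1qb and Gpr34 went from 0.29 and 0.31 to -0.18 and -0.077. Of 60 list medians, 10 turned sign with the adjustment for transcript length, 9 without IL-5 replicate 1, 7 without each other library in turn, and 0 to 4 in each other setting. Genes near a few CPM were limited by depth, since 3 counts stood for up to 0.153 CPM, and the biological coefficient of variation between libraries was 0.907.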

Other observations

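Transcripts of blood vessels and of border macrophages were also present, and no member of these lists passed the edgeR test. Endothelial markers summed to 4296 and 4496 CPM with PBS against 3311 and 5130.4 CPM with IL-5, with a list median of 0.13, which was -0.12 without PBS replicate 1 and -0.53 without IL-5 replicate 2. Ly6c1, a surface protein of brain endothelium, measured 357 and 460.4 CPM with PBS against 910.4 and 584 CPM with IL-5, above the controls in both IL-5 libraries. Ocln, a tight junction protein, measured 48.4 and 31.0 CPM with PBS against 16.5 and 14.3 CPM with IL-5, below them in both. Markers of mural cells, the contractile cells of vessels, summed to 1041 and 951 CPM with PBS against 420.3 and 864 CPM with IL-5, and Acta2, their actin, measured 373 and 409 CPM with PBS against 209 and 416 CPM with IL-5. Both the mural sum and Acta2 were lowest in IL-5 replicate 1. Of the 8 mural markers 2 lay below both controls in both IL-5 libraries, Vtn among them, against 21.1% of all genes.

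Markers of border macrophages, which live along vessels and in the meninges, summed to 382 and 306 CPM with PBS against 527 and 368 CPM with IL-5, with a list median of -0.33, of the opposite sign to the sum. Of 9 tested members 3 were above 0 and 6 below. Without overlap 2 lay above the controls and 4 below them, where 17.4% and 21.1% of all genes did so. Cd209f, a lectin receptor of these cells, measured 20.2 and 18.5 CPM with PBS against 36.7 and 40.1 CPM with IL-5, and Ms4a7, a membrane protein that separates them from microglia, 44.5 and 42.8 CPM with PBS against 105 and 76.0 CPM with IL-5, both above the controls in each IL-5 library. Stab1, a scavenger receptor, measured 96.7 and 88.3 CPM with PBS against 76.4 and 72.2 CPM with IL-5 and lay below them. Ptges, the enzyme that makes prostaglandin E, had 0 counts in both IL-5 libraries and measured 5.45 and 1.95 CPM after PBS.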
